A study of Mus musculus with 12 samples.

Results

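The mitochondrial ribosome is the ribosome that makes proteins inside mitochondria, and its own proteins are encoded in the nucleus. Its genes were taken from the gene count table of inguinal white adipose tissue (iWAT), the subcutaneous fat depot of the groin, as all protein-coding genes with a symbol made of Mrpl or Mrps and a number, pseudogenes left out. This gave 78 of the 33200 genes in the table, 49 with the large-subunit prefix Mrpl and 29 with the small-subunit prefix Mrps. The groups were wild-type (WT) C57BL/6 mice and mice with a global knockout (KO) of Nrep (Nrep-/-) made by CRISPR/Cas genome editing. All mice ate a standard maintenance diet and were 16 weeks old. Each group had 3 libraries described as biological replicates, and the sources used here do not say whether animals were pooled, how many founder lines were used or which part of Nrep was deleted. The 6 liver samples of the series were not analysed here.

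The mitoribosome translates the few proteins encoded by mitochondrial DNA, all of them subunits of the respiratory chain complexes or of ATP synthase. Its RNA comes from mitochondrial DNA, while its proteins are made in the cytosol and imported, so the organelle's translation capacity depends on both genomes. Some of its proteins have bacterial homologues and others are found in mitochondria alone. White adipocytes hold fewer mitochondria than brown or beige adipocytes, in which mitochondrial oxidation feeds heat production.

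Library totals lay between 17970451 and 20369345 counts, and 16656 genes passed the filter on low counts, among them all 78 mitoribosomal genes. Nrep had 1404, 1640 and 1300 counts in the WT libraries and 2, 2 and 5 counts in the KO libraries. On the log2 scale the KO level was -8.72 ± 0.27 relative to WT (SE; edgeR's quasi-likelihood test with Benjamini-Hochberg adjustment, adjusted p = 1.82e-05). KO replicate 2 stood apart from the other 2 KO libraries. Against the WT mean, its median log2 level of 10 adipocyte markers was 0.25 higher, compared with 0.75 and 1.12 higher in KO replicates 1 and 3. Its median level of 7 B cell markers was 0.13 higher, while it was 1.03 and 2.07 lower in the other KO libraries (log2 differences of -1.03 and -2.07). Transcripts of 14 skeletal muscle genes summed to between 12.4 and 18.7 CPM (counts scaled to library size) in WT libraries. In KO replicates 1, 2 and 3 they summed to 4350, 725 and 4027 CPM. Of the 14 genes, 11 passed the test as higher, against 0.865% of all tested genes.

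Transcripts of the mitoribosomal proteins were present at modestly higher levels in the KO libraries, across both subunits, but no single gene of the 78 passed the test at an adjusted p of 0.05. The log2 fold change, KO over WT, was above 0 for 75 of 78 genes, 46 of 49 in the large subunit and 29 of 29 in the small one, against 44.2% of all tested genes. The median was 0.28 for the large subunit and 0.27 for the small subunit, both about 1.2-fold on the linear scale (1.22 and 1.21), against -0.06 for all tested genes. The individual values ran from -0.09 to 0.61, and 76.8% of all tested genes lay below the median mitoribosomal gene. Across all genes the same test called 144 genes as higher (0.865%) and 27 as lower (0.162%), or 129 and 49 with library totals as the scaling. The smallest adjusted p among the 78 was 0.0630.

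Other thresholds and tools gave counts above 0. By edgeR, 32 of the 78 had an unadjusted p under 0.05 and a higher KO level, 22 in the large and 10 in the small subunit, against 12.8% of all tested genes, and none had one with a lower KO level. At an adjusted p under 0.10 the count was 11 (8 large, 3 small), against 5.52% of all tested genes. DESeq2 called 13 as higher (9 large, 4 small), against 7.34% of all genes, and limma-voom called 0. Without the filter on low counts edgeR called 5, all large-subunit genes, against 2.8% of all genes, and with the replicate number as a block it called 1, Mrpl42, against 4.74%. Without KO replicate 2, edgeR called 35 as higher (24 large, 11 small), against 14.5% of all tested genes. In 50 of the 78 genes every KO library lay above every WT library, against 15.2% of all tested genes, and in none did every KO library lie below.

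Summed over the large subunit, normalised expression was 1402, 1381 and 1326 CPM in WT replicates 1, 2 and 3 and 1704, 1560 and 1785 CPM in the KO libraries. These CPM are scaled by TMM, a correction for differences in RNA composition between libraries that edgeR computes. The small subunit summed to 784, 789 and 722 CPM in WT and to 937, 861 and 1002 CPM in KO libraries. In both subunits all KO libraries lay above all WT libraries, with KO replicate 2 the lowest of its group. The mean of the whole set was 2135 ± 75.5 CPM in WT and 2616 ± 184 CPM in KO (SD, n = 3 each), a ratio of 1.23.

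**Figure D1:**
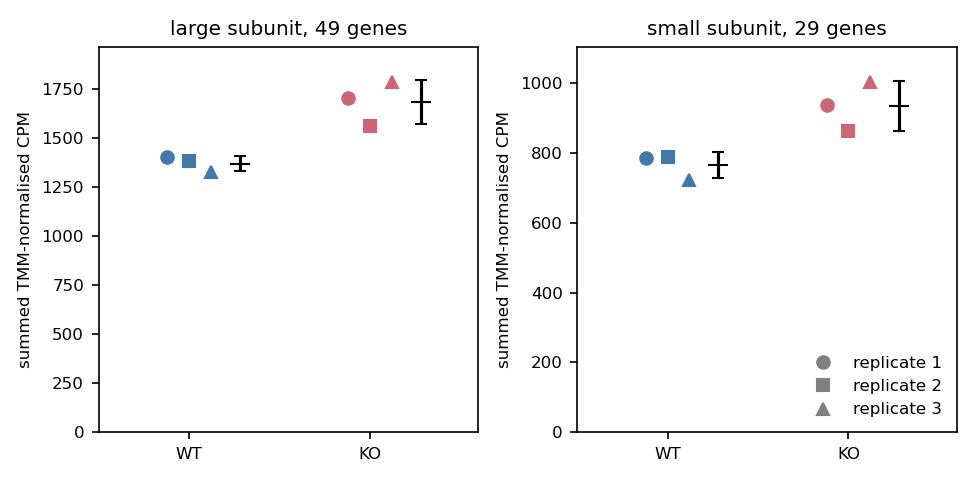
Summed TMM-normalised CPM of the large-subunit (49 genes, left) and small-subunit (29 genes, right) genes in each library, on axes that start at 0. Symbols mark replicates 1 to 3 and black bars the mean ± SD of each group; the lowest KO value is 1560 CPM for the large and 861 CPM for the small subunit, above the highest WT values of 1402 and 789 CPM.

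As a share of all counts, with no scaling between libraries, the 78 genes took 0.229%, 0.228% and 0.214% in WT and 0.243%, 0.250% and 0.253% in KO libraries. The groups did not overlap on this scale either, but the ratio of the means was smaller, since 0.224% ± 0.00856 stood against 0.249% ± 0.00546 (SD, n = 3). Scaling by library totals took the all-gene median from -0.06 to -0.19, a shift of -0.13 on the log2 scale. It left the large-subunit median at 0.14 and the small-subunit median at 0.13, with 71 of the 78 genes above 0, against 32.3% of all genes. In bulk tissue a change in the number of cells of a type and a change in RNA per cell cannot be told apart.

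Large-subunit and small-subunit transcripts kept about the same proportion to each other. The ratio of summed large-subunit to summed small-subunit counts was 178.8%, 175.0% and 183.7% in WT and 181.9%, 181.2% and 178.2% in KO libraries. The KO values lay within the WT range. Among the 48 genes with bacterial homologues the median log2 fold change was 0.28, and among the 29 mitochondria-specific ones it was 0.25. Mrps36 is in neither class, because its product, despite the name, is a component of the 2-oxoglutarate dehydrogenase complex.

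The log2 fold changes lay close together. Their SD over the 78 genes was 0.14, compared with 0.74 over all tested genes, and the median standard error of one gene's value was 0.13. The all-gene SD takes in extreme values, from -8.72 to 13.3. By quartiles the contrast was smaller, at 0.21 and 0.37 for the 78 genes and -0.30 and 0.24 for all tested genes. A small SD was not particular to these genes. Among the gene lists described below, it was 0.15 for the nuclear respiratory chain, 0.19 for mitochondrial translation factors and 0.27 for mitochondrial protein import. The SD and the standard error do not measure the same spread. A difference between libraries that all these genes share enters each standard error but not the SD over genes. Between 0.1 and 0.4 lay 59 genes, 15 were at 0.4 or higher and 4 were under 0.1. Across the 78 genes, which share libraries and so are not independent, Pearson's r of the log2 fold change was 0.10 with the log2 WT CPM, -0.20 with log2 exonic length and 0.25 with the log2 CPM per kb.

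**Figure D2:**
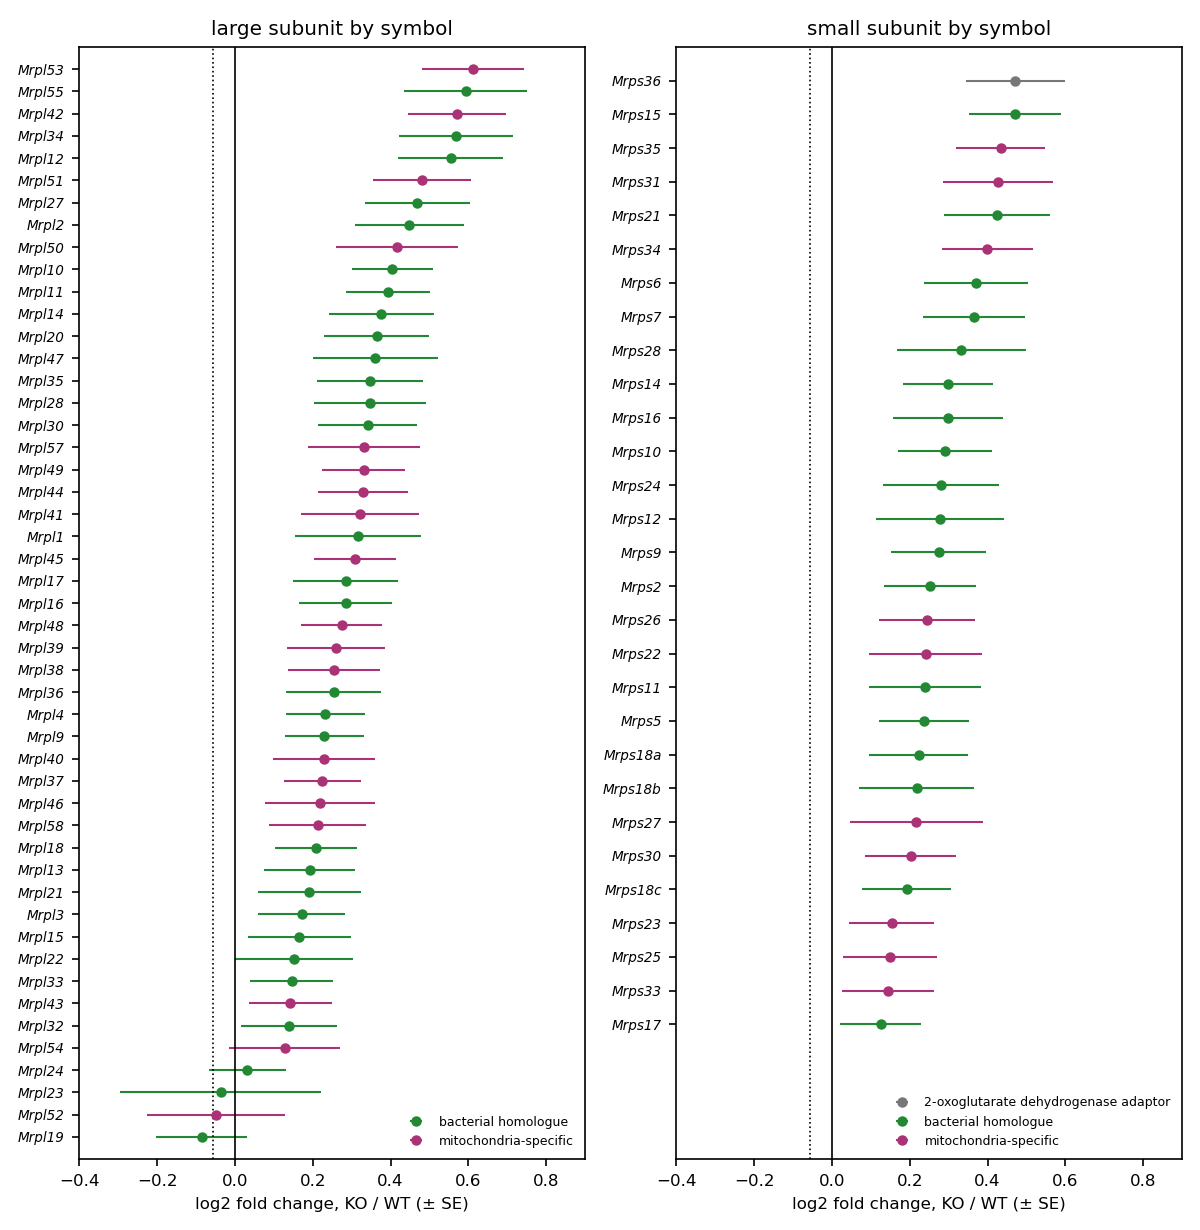
Log2 fold change (KO over WT, edgeR, ± SE) of each mitoribosomal gene, ordered within the symbol-defined large (left) and small (right) subunit and coloured by whether the protein has a bacterial homologue. The solid line marks 0 and the dotted line the median of all tested genes at -0.06; only Mrpl19, Mrpl52 and Mrpl23 have values below 0.

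The promoters of the mitoribosomal genes are shown because they give the common features of these genes and the letters recognised by the regulators of nuclear-encoded mitochondrial genes. NRF1 (nuclear respiratory factor), the ETS-family factor GABPA and YY1 are such regulators, and the oestrogen-related receptors (ERR) bind sites holding AAGGTCA. RefSeq promoter sequences of the GRCm38.p6 assembly matched 69 of the 78 genes, 43 large and 26 small, by symbol; Mrpl4, Mrpl13, Mrpl15, Mrpl19, Mrpl38, Mrpl54, Mrps28, Mrps34 and Mrps35 had no entry. Each window runs from 250 bases before to 50 bases after the annotated start, and only the 250 bases before it are printed, 5′ to 3′ on the gene's strand. Capitals mark matches on either strand to the NRF1 motif (GCGCA, any base, GCGC), to CCGGAAG (ETS) or to AAGGTCA (ERR). Printed are Mrpl53, the gene with the highest log2 fold change, Mrpl12 and Mrpl45, which have special roles in the large subunit, Mrps15, the highest Mrps gene with a purely ribosomal product, and Mrps21, the Mrps gene with the highest level per kb.
Mrpl53 (ENSMUSG00000030037), plus strand, chr6:83108858-83109107: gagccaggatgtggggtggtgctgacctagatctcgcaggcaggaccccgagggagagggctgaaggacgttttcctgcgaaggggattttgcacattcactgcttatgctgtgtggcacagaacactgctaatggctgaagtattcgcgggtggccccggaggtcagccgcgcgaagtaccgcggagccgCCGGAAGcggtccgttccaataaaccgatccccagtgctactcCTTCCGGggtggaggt
Mrpl12 (ENSMUSG00000039640), plus strand, chr11:120484387-120484636: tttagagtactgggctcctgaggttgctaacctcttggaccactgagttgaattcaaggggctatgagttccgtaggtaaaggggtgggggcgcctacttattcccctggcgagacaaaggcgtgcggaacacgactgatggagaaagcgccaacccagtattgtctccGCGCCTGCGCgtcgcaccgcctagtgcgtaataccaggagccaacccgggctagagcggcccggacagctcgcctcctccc
Mrpl45 (ENSMUSG00000018882), plus strand, chr11:97315466-97315715: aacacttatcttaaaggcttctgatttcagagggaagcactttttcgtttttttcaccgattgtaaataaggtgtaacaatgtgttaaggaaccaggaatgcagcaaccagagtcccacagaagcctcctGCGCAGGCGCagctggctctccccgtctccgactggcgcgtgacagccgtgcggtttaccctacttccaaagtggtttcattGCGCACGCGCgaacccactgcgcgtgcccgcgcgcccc
Mrps21 (ENSMUSG00000054312), minus strand, chr3:95871515-95871764: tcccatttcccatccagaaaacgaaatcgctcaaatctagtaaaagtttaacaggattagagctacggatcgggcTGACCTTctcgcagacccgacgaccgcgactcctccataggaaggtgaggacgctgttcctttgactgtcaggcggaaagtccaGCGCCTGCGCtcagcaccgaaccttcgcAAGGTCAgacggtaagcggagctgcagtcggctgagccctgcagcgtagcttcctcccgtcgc
Mrps15 (ENSMUSG00000028861), plus strand, chr4:126046678-126046927: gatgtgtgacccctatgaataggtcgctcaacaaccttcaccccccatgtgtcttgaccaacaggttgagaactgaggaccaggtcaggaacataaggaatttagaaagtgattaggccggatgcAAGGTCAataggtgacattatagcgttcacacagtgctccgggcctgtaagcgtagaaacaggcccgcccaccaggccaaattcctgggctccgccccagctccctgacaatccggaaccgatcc

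The printed Mrpl53 sequence holds 2 ETS matches, that of Mrpl12 holds 1 NRF1 match and that of Mrpl45 holds 2. The Mrps21 sequence holds 1 NRF1 match and 2 ERR matches, and that of Mrps15 holds 1 ERR match. Over the whole windows, CCGGAAG was found in 37.7% of the 69 matched genes and in 18.3% of the 11579 tested genes with an entry. The NRF1 motif was found in 18.8% and 10.3%, and AAGATGGC, the YY1 motif, in 17.4% and 4.80%. At least one of the 3 was present in 62.3% of the mitoribosomal genes and in 29.4% of the tested genes. AAGGTCA was in 5.80% and 4%, TGACGTCA (the cyclic AMP response element) in 2.90% and 3.31%, and CACGTG (the E-box) in 7.25% and 11.2%. Some matches can overlap a longer motif, and a match is a description of the letters, not a binding site.

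Base composition was alike in the windows compared, with a median GC content of 58.7% in the mitoribosomal promoters and 60% in those of tested genes. The 13 genes with an NRF1 match had a median log2 fold change of 0.31, compared with 0.28 for the 56 matched genes without one. The 26 genes with an ETS match had a median of 0.22 and the 43 without one 0.32, and the 12 with a YY1 match 0.27 against 0.28 for the other 57. The 4 genes with an ERR match had a median of 0.45, and the 65 without it 0.28. These medians are descriptions over few genes. Mrps11 and Mrpl46 lie head to head, and their windows share 141 bases. The 78 genes are spread over 17 chromosomes, with 11 of them on chromosome 11 and 8 on chromosome 17.

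Among the large-subunit genes, the 4 highest log2 fold changes belonged to Mrpl53, Mrpl55, Mrpl42 and Mrpl34. Mrpl53, a mitochondria-specific protein whose promoter is printed above, was at 20.3, 20.1 and 17.96 CPM in WT replicates 1, 2 and 3 and at 27.6, 27.8 and 33.8 CPM in the KO libraries. All KO libraries lay above all WT libraries, and replicate 2 was level with replicate 1. The log2 fold change was 0.61 ± 0.13 (SE, edgeR adjusted p = 0.0630). Mrpl42, another mitochondria-specific protein, was at 44.3, 45.4 and 41.2 CPM in WT and at 73.4, 57.4 and 63.6 CPM in KO libraries, with a log2 fold change of 0.57 ± 0.13 (edgeR adjusted p = 0.0631). Its lowest KO library, replicate 2, was still 12.0 CPM above its highest WT library.

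Mrpl55, a homologue of a bacterial large-subunit protein, was at 14.9, 12.7 and 14.9 CPM in WT and at 23.4, 17.6 and 23.2 CPM in KO libraries (0.59 ± 0.16, edgeR adjusted p = 0.0871). Mrpl34, likewise with a bacterial homologue, was at 15.5, 14.0 and 15.9 CPM in WT and at 21.1, 19.999 and 26.2 CPM in KO libraries (0.57 ± 0.15, edgeR adjusted p = 0.0841). In both genes the groups did not overlap and KO replicate 2 was the lowest KO library. Without that library, the edgeR adjusted p was 0.00842 for Mrpl55, 0.0138 for Mrpl34, 0.0113 for Mrpl53 and 0.00763 for Mrpl42.

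The stalk of the large subunit recruits the translation factors that hydrolyse GTP, and it is built from the products of Mrpl10 and Mrpl12 on a base that includes that of Mrpl11. Mrpl12, whose product also binds the mitochondrial RNA polymerase, was at 36.9, 44.2 and 40.8 CPM in WT and at 61.1, 51.4 and 66.7 CPM in KO libraries (0.55 ± 0.14, edgeR adjusted p = 0.0754). Mrpl10 was at 39.8, 39.6 and 39.9 CPM in WT and at 51.5, 49.8 and 56.7 CPM in KO libraries (0.40 ± 0.10, edgeR adjusted p = 0.0844). Mrpl11 was at 31.7, 30.6 and 28.2 CPM in WT and at 39.9, 37.4 and 41.5 CPM in KO libraries (0.39 ± 0.11, edgeR adjusted p = 0.0952). In all of the stalk genes named here the KO libraries lay above the WT libraries, and DESeq2 put them past the threshold, with adjusted p of 0.0120, 0.0166 and 0.0299 in the same order.

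Mrpl45, whose product helps anchor the ribosome to the inner membrane where the new proteins are inserted, was at 32.6, 29.6 and 31.6 CPM in WT and at 39.8, 37.0 and 39.4 CPM in KO libraries (0.31 ± 0.11, edgeR adjusted p = 0.143). Mrpl44, a protein with a ribonuclease III-like fold, was at 20.7, 18.7 and 19.3 CPM in WT and at 23.2, 26.0 and 24.6 CPM in KO libraries (0.33 ± 0.12, edgeR adjusted p = 0.151). Both genes had separate groups, and Mrpl44 was one of the genes whose highest KO library was replicate 2. Mrpl58, a peptidyl-tRNA hydrolase that frees stalled chains, was at 25.3, 22.3 and 20.7 CPM in WT and at 26.1, 25.3 and 27.8 CPM in KO libraries (0.21 ± 0.12, edgeR adjusted p = 0.337). For Mrpl58 the highest WT library stood level with the lowest KO library, so that the groups met.

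Mrpl30 had the highest CPM of the large-subunit genes as a mean over all 6 libraries, at 67.3, 62.0 and 60.5 CPM in WT and 81.2, 70.1 and 89.2 CPM in KO libraries (0.34 ± 0.13, edgeR adjusted p = 0.169). The KO libraries lay above the WT libraries. Mrpl24, of similar abundance, was at 66.3, 64.1 and 63.3 CPM in WT and at 64.9, 66.2 and 66.9 CPM in KO libraries. Its groups overlapped, and its log2 fold change of 0.03 ± 0.10 was below its standard error (edgeR adjusted p = 0.863). Per kb of exon, the highest WT level of the large subunit was that of Mrpl33, at 70.3 CPM per kb, while Mrpl30 stood at 65.0 CPM per kb, Mrpl42 at 64.3 and Mrpl24 at 41.5.

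Mrpl19, Mrpl52 and Mrpl23 were the genes with log2 fold changes below 0. Mrpl19 was at 23.8, 22.6 and 20.8 CPM in WT and at 20.3, 20.9 and 22.1 CPM in KO libraries (-0.09 ± 0.12, edgeR adjusted p = 0.672). Mrpl52, a mitochondria-specific protein, was at 12.2, 14.6 and 11.1 CPM in WT and at 10.2, 12.6 and 13.9 CPM in KO libraries (-0.05 ± 0.18, edgeR adjusted p = 0.884). Both pairs of groups overlapped. Mrpl23, the lowest of all 78 by CPM and per kb of exon at 3.72 ± 0.62 CPM in WT and 3.62 ± 0.78 CPM in KO (SD, n = 3), has a pseudogene, Mrpl23-ps1, counted at 20.3 to 25.7 CPM in WT libraries, so how reads were divided between the copies is uncertain. Its log2 fold change was -0.04 ± 0.26, and the sign turned positive for Mrpl23 with DESeq2 and for Mrpl23 and Mrpl52 with upper-quartile scaling.

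**Figure D3:**
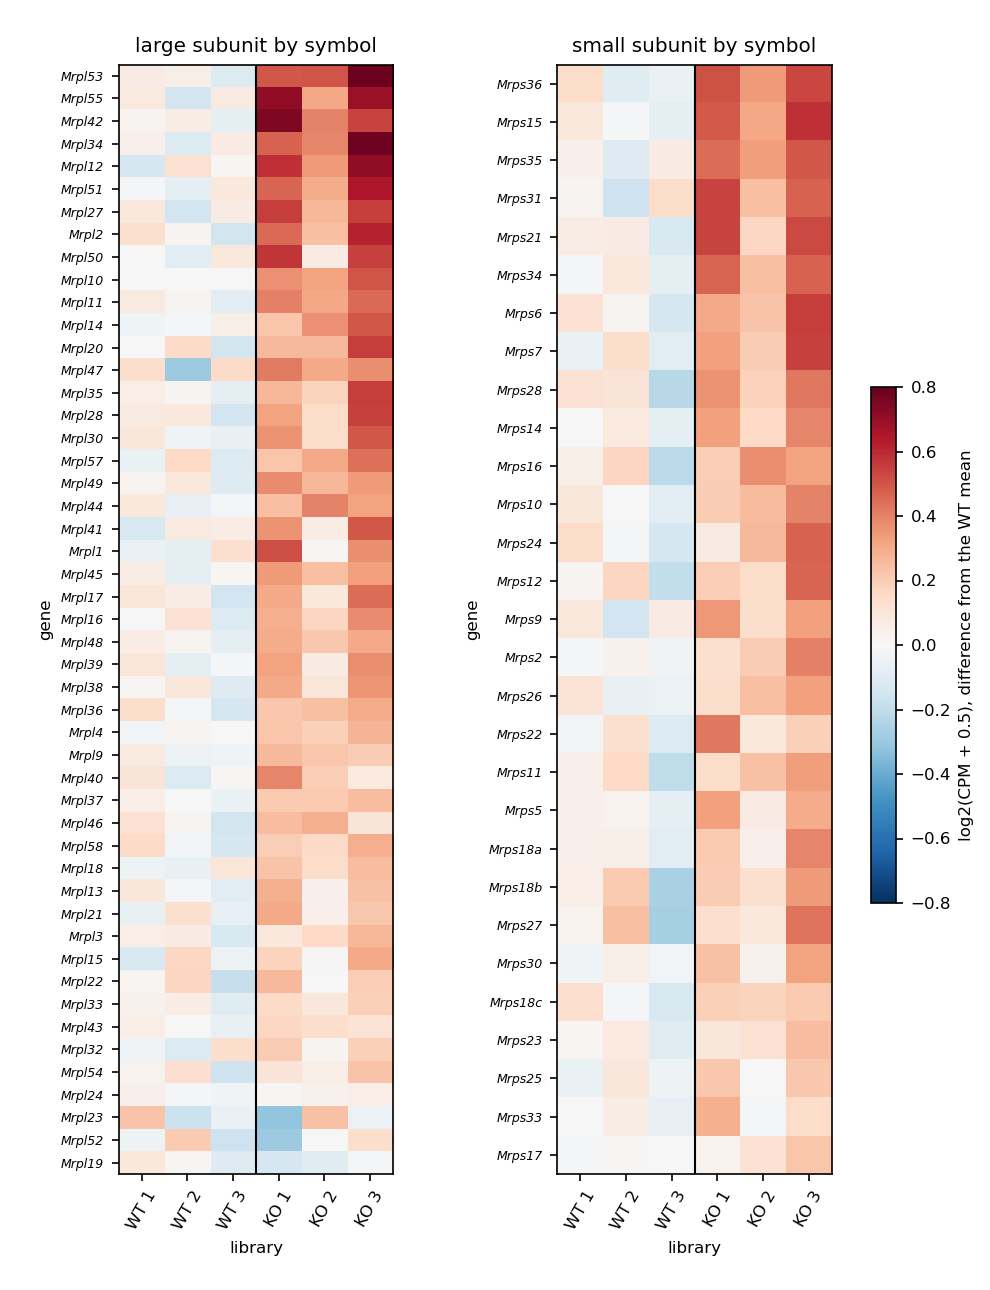
Level of each mitoribosomal gene in each library, as log2(CPM + 0.5) minus that gene's WT mean, with genes ordered by log2 fold change within the symbol-defined large (left) and small (right) subunit. Red is above and blue below the WT mean; the column of KO replicate 2 is paler than its neighbours, and it is the lowest KO library in 56 of 78 genes.

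In the small subunit no log2 fold change was below 0. Mrps36, counted here by its symbol alone, had the highest, at 20.8, 17.5 and 18.1 CPM in WT and 26.9, 23.9 and 27.5 CPM in KO libraries (0.47 ± 0.13, edgeR adjusted p = 0.0900). Mrps15, which has a bacterial homologue, followed at 36.2, 33.9 and 32.2 CPM in WT and 48.2, 42.3 and 51.4 CPM in KO libraries (0.47 ± 0.12, edgeR adjusted p = 0.0800). Mrps35, mitochondria-specific, was at 24.9, 22.5 and 25.3 CPM in WT and at 33.2, 30.6 and 34.4 CPM in KO libraries (0.43 ± 0.11, edgeR adjusted p = 0.0861). In each of these genes the lowest KO library was replicate 2, and it lay above the highest WT library. They are also the 3 small-subunit genes with an adjusted p under 0.10.

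Mrps31 was at 18.3, 16.0 and 20.02 CPM in WT and at 26.5, 21.4 and 25.2 CPM in KO libraries (0.43 ± 0.14, edgeR adjusted p = 0.136). Mrps21, whose promoter is printed above, was at 49.1, 49.4 and 43.4 CPM in WT and at 68.9, 53.1 and 68.4 CPM in KO libraries (0.42 ± 0.14, edgeR adjusted p = 0.128). Replicate 2 of Mrps21 was 15.3 CPM below the next KO library, and the WT level of this gene per kb of exon, 96.1 CPM per kb, was the highest of the 78. Mrps34, mitochondria-specific and needed for a stable small subunit, was at 32.1, 34.3 and 30.6 CPM in WT and at 44.7, 38.2 and 45.1 CPM in KO libraries (0.40 ± 0.12, edgeR adjusted p = 0.105). Mrps7, a homologue of a bacterial protein of the small-subunit head, was at 37.3, 42.8 and 36.6 CPM in WT and at 48.8, 44.8 and 56.9 CPM in KO libraries (0.37 ± 0.13, edgeR adjusted p = 0.157). None of these genes had overlapping groups.

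Mrps12, a homologue of the bacterial protein at the decoding centre, was at 12.3, 13.7 and 10.5 CPM in WT and at 13.9, 13.4 and 16.8 CPM in KO libraries (0.28 ± 0.16, edgeR adjusted p = 0.341), and its groups overlapped. Mrps5 was at 38.7, 38.4 and 35.8 CPM in WT and at 47.4, 39.4 and 46.2 CPM in KO libraries (0.24 ± 0.12, edgeR adjusted p = 0.268). Mrps2 was at 25.2, 26.0 and 24.9 CPM in WT and at 27.8, 29.3 and 33.7 CPM in KO libraries (0.25 ± 0.12, edgeR adjusted p = 0.250). Mrps5 and Mrps2, both with bacterial homologues, had separate groups, although KO replicate 2 of Mrps5 was only 0.68 CPM above the highest WT library. Mrps22, mitochondria-specific, was at 15.0, 16.7 and 14.1 CPM in WT and at 20.5, 16.2 and 17.4 CPM in KO libraries (0.24 ± 0.15, edgeR adjusted p = 0.351), and KO replicate 2 lay below WT replicate 2. Mrps28, the small-subunit gene with the lowest mean CPM, was at 10.5, 10.4 and 8.22 CPM in WT and at 12.6, 11.03 and 13.1 CPM in KO libraries (0.33 ± 0.17, edgeR adjusted p = 0.273).

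At the lower end of the small subunit, Mrps17 was at 42.4, 43.1 and 42.9 CPM in WT and at 43.6, 46.5 and 49.96 CPM in KO libraries (0.13 ± 0.10, edgeR adjusted p = 0.488). Its groups did not overlap, but the smallest gap between them was 0.50 CPM, and its log2 fold change was -0.01 with library totals as the scaling. Mrps33, Mrps25 and Mrps23 had log2 fold changes of 0.14, 0.15 and 0.15, with edgeR adjusted p of 0.484, 0.471 and 0.419. Of these, Mrps23 had separate groups and the other two had overlapping ones.

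The products of Mrps30 and Mrps18a sit in the large subunit despite their names. Mrps30 was at 31.6, 33.4 and 31.7 CPM in WT and at 37.9, 33.0 and 40.3 CPM in KO libraries (0.20 ± 0.12, edgeR adjusted p = 0.334). Mrps18a was at 27.3, 27.4 and 24.9 CPM in WT and at 30.7, 27.3 and 34.8 CPM in KO libraries (0.22 ± 0.13, edgeR adjusted p = 0.332). In both genes KO replicate 2 lay within the WT range. With them counted in the large subunit and Mrps36 left out, the medians were 0.27 for 51 large-subunit genes and 0.28 for 26 small-subunit genes.

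Library by library, the median log2 level of the 78 genes relative to the WT mean was 0.04, 0.02 and -0.08 in WT and 0.28, 0.18 and 0.36 in KO replicates 1, 2 and 3. KO replicate 1 exceeded all WT libraries in 69 of 78 genes, replicate 2 in 55 and replicate 3 in 73, against 32.1%, 29.9% and 35.1% of all tested genes. KO replicate 2 was the lowest KO library in 56 of the 78 and the highest in 4, against 40.6% and 41.2% of all tested genes. The same library held the lowest adipocyte marker level and the highest B cell marker level of the KO group, and their part in its mitoribosomal level was not tested. Among WT libraries, replicate 3 was the lowest in 49 of 78 genes, against 38.3% of all tested genes. Within groups the genes varied little, with a median coefficient of variation of 6.99% in WT and 9.11% in KO, compared with 12.1% and 17.8% over all tested genes. Of the lists described below, the nuclear respiratory chain had 6.78% in WT and 14.1% in KO, and mitochondrial protein import 8.14% and 9.42%.

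The remaining parts of mitochondrial gene expression were described with gene lists of their own, and no gene of them passed the edgeR test. Mitoribosomal proteins under other symbols gave log2 fold changes above 0 in 5 of 5 genes, with a median of 0.19. Dap3, a small-subunit GTP-binding protein, was at 0.17 ± 0.10 (edgeR adjusted p = 0.337), and Ptcd3, a pentatricopeptide-repeat protein of the small subunit, at 0.35 ± 0.12 (edgeR adjusted p = 0.146). Of 25 genes for ribosome assembly and rRNA modification 22 were above 0, with a median of 0.22. Dhx30, an RNA helicase, was at 0.04 ± 0.10 and Rbfa, a small-subunit assembly factor, at 0.22 ± 0.11, with edgeR adjusted p of 0.838 and 0.277. By edgeR's unadjusted p under 0.05, 2 of the 5 and 7 of the 25 were higher, against 12.8% of all tested genes, and none lower. DESeq2 called 0 and 1 as higher, against 7.34% of all tested genes.

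Mitochondrial translation factors, 16 of 17 listed genes matched, were above 0 in 14, with a median of 0.24. Tufm, the elongation factor that delivers aminoacyl-tRNA, was at 74.8, 69.8 and 67.2 CPM in WT and at 91.6, 77.3 and 98.2 CPM in KO libraries (0.33 ± 0.13, edgeR adjusted p = 0.179). Lrpprc, which stabilises mitochondrial mRNAs, was at 0.17 ± 0.11 (edgeR adjusted p = 0.371). Both had separate groups. Summed mitoribosomal counts relative to summed translation factor counts were 500.2%, 525.5% and 479.3% in WT and 497.5%, 510.9% and 524.5% in KO libraries, a log2 difference of the group means of 0.03. The KO values lay within the WT range.

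The synthetases that charge mitochondrial tRNAs were above 0 in 18 of 20 genes, with a median of 0.15. Iars2, for isoleucine, was at 0.45 ± 0.13 (edgeR adjusted p = 0.106), and Lars2, for leucine, at 0.00081 ± 0.11 (edgeR adjusted p = 0.997). Genes that maintain mitochondrial DNA and RNA were above 0 in 17 of 25, with a median of 0.11. Hsd17b10, a subunit of the enzyme that cuts the tRNA 5′ end, was at 0.54 ± 0.16 (edgeR adjusted p = 0.101), and Grsf1, an RNA granule protein, at 0.30 ± 0.14 (edgeR adjusted p = 0.247). For protein import, 25 of 30 genes were above 0, with a median of 0.25. Hspa9, the import motor chaperone, was at 0.47 ± 0.18 and Hspd1, the matrix chaperonin, at 0.25 ± 0.17, with edgeR adjusted p of 0.178 and 0.401. DESeq2 called 3, 3 and 6 genes of these lists as higher, against 7.34% of all tested genes, and none as lower.

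Of the regulators of mitochondrial biogenesis, 17 of 18 were tested, 8 were above 0 and the median was -0.07. The values ran from -0.50 to 1.13. Named here are the 2 most abundant genes of the list, not those with the largest changes. Yy1 was at -0.14 ± 0.12 and Gabpb2, which encodes a partner subunit of GABPA, at -0.31 ± 0.21, with edgeR adjusted p of 0.480 and 0.390. Both had overlapping groups. By edgeR's unadjusted p under 0.05, 5 of the 17 were higher and 2 lower, against 2130 and 1630 of the 16656 tested genes. DESeq2 called 3 as higher and 1 as lower, against 1222 and 602 of all tested genes.

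**Figure D4:**
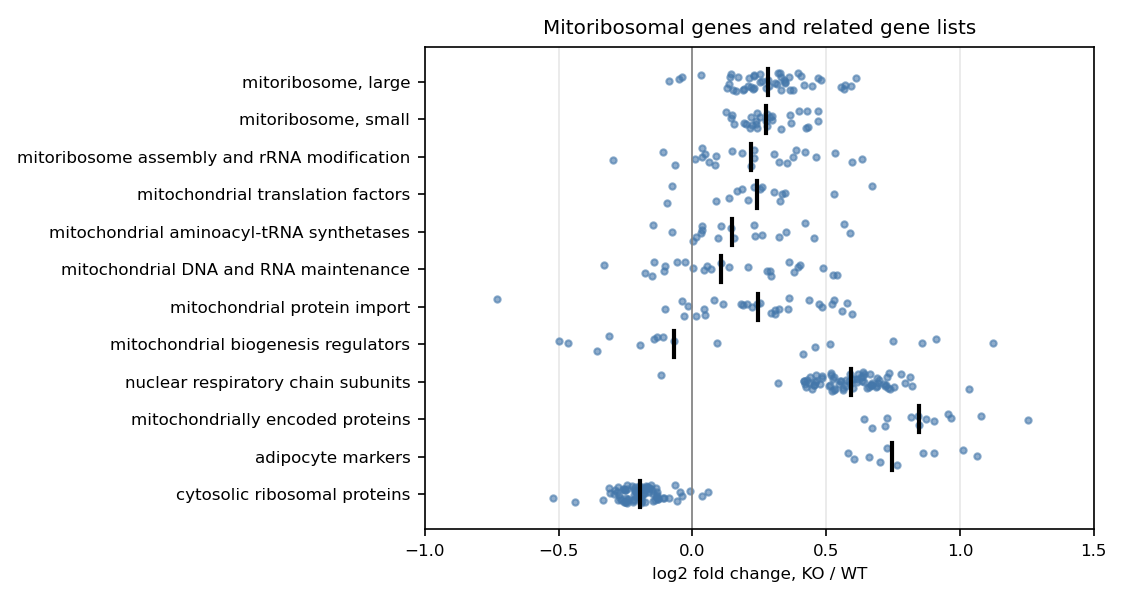
Log2 fold change (KO over WT, edgeR) of each tested gene in the mitoribosome, 9 related gene lists and the adipocyte markers, with the list median as a black bar. The mitoribosomal medians of 0.28 and 0.27 lie between the medians of the respiratory chain (0.59) and of the cytosolic ribosomal proteins (-0.20); 1 gene, Rpl3l, lies beyond the axis.

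Nuclear-encoded subunits of the respiratory chain and ATP synthase had higher log2 fold changes than the mitoribosomal genes. Their median was 0.59 and 73 of 74 were above 0. In 71 every KO library lay above every WT library, against 15.2% of all tested genes. By edgeR's unadjusted p under 0.05, 72 were higher, against 12.8% of all tested genes. DESeq2 called 68 as higher, against 7.34%, and edgeR called 0. Atp5b, the catalytic subunit of ATP synthase, was at 0.56 ± 0.19 (edgeR adjusted p = 0.140), and Atp5a1, its partner in the catalytic head, at 0.52 ± 0.17 (edgeR adjusted p = 0.129). Only 2 of the 78 mitoribosomal genes exceeded the respiratory chain median, and 34 respiratory chain genes exceeded the highest mitoribosomal value. All 13 proteins encoded by mitochondrial DNA were above 0, with a median of 0.85, and mt-Co1, a core subunit of cytochrome c oxidase, was at 0.72 ± 0.33 (edgeR adjusted p = 0.245). In only 3 of the 13 did every KO library lie above every WT library, against 15.2% of all tested genes. Their median log2 level relative to the WT mean was 0.59 in WT replicate 3 and 0.41 in KO replicate 2. By edgeR 0 of these 13 passed, and 9 had an unadjusted p under 0.05 as higher, against 12.8% of all tested genes. DESeq2 called 9 as higher, against 7.34%.

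Within a library, summed mitoribosomal counts relative to summed nuclear respiratory chain counts were 21.6%, 23.8% and 21.4% in WT and 17.8%, 19.9% and 17.4% in KO replicates 1, 2 and 3. Every KO library lay below every WT library, and the means were 22.3% ± 1.34 and 18.3% ± 1.36 (SD, n = 3). The log2 difference was -0.28, a value that no scaling between libraries can move. The 2 sums thus differed unequally between groups, with the respiratory chain sum 1.50 times and the mitoribosomal sum 1.23 times its WT mean. Relative to mitochondrially encoded proteins the log2 difference was -0.53 and relative to adipocyte markers -0.41, and the groups overlapped in both ratios.

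Cytosolic ribosomal proteins, which share the task of translation but not the compartment, had a median log2 fold change of -0.20, with 3 of 82 above 0. Rplp0 and Rpsa were at -0.25 ± 0.21 and -0.27 ± 0.23, with edgeR adjusted p of 0.481 and 0.487. Here edgeR called 0 genes. By edgeR's unadjusted p under 0.05, 1 gene was higher, against 12.8% of all tested genes, and 0 were lower. The same gene was the 1 call of DESeq2, against 7.34% of all tested genes. That gene, Rpl3l, is the muscle-specific relative of Rpl3 and was picked out after its value was seen. Without KO replicate 2, edgeR called 23 of the 82 as lower and 1 as higher, against 1811 and 2410 of the 16656 tested genes. Mitoribosomal relative to cytosolic ribosomal counts were 5.30%, 4.90% and 5.13% in WT and 8.09%, 5.20% and 9.31% in KO libraries. KO replicate 2 lay within the WT range and the other 2 KO libraries above it, and the log2 difference of the means was 0.52.

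**Figure D5:**
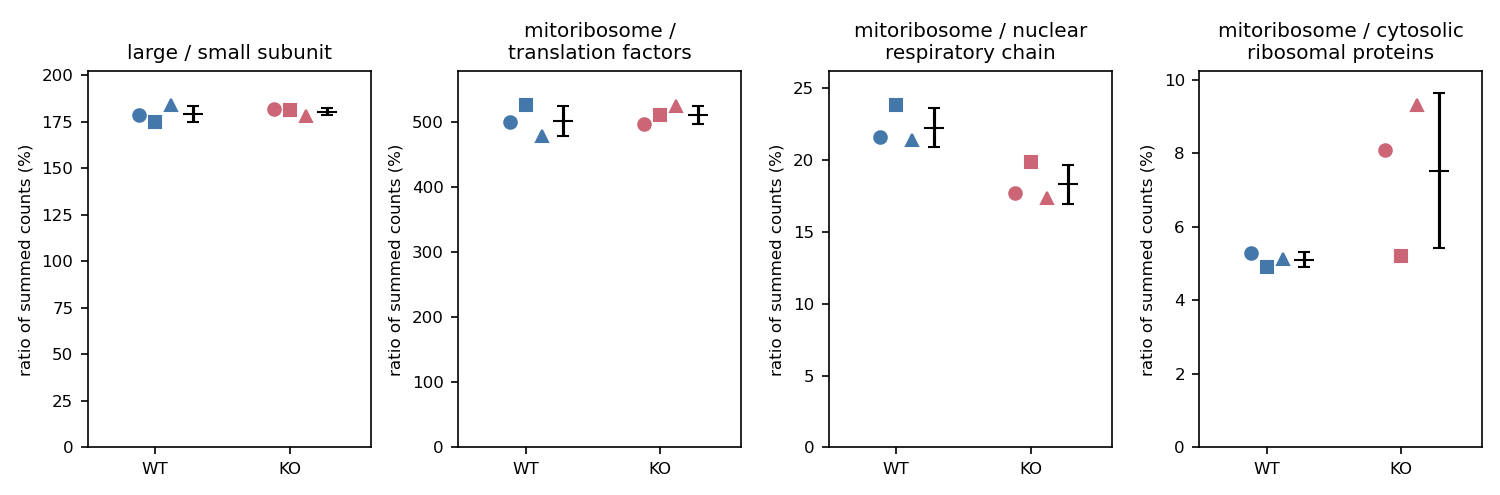
Ratios of summed counts in each library, in percent, on axes that start at 0; symbols mark replicates 1 to 3 (circle, square, triangle) and black bars the mean ± SD. The large to small subunit ratio and the ratio to translation factors overlap between groups, all KO values of the ratio to the nuclear respiratory chain (17.4% to 19.9%) lie below the WT values (21.4% to 23.8%), and KO replicate 2 falls among the WT libraries in the ratio to cytosolic ribosomal proteins.

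Median log2 fold changes of cell type markers lay on both sides of 0, and in some lists the groups overlapped. Adipocyte markers were above 0 in 10 of 10 genes (median 0.75) and summed to 16300 to 20890 CPM in WT and 21710 to 38290 CPM in KO libraries. Markers of brown or beige adipocytes were above 0 in 7 of 7 (median 1.11), at 67.1 to 204 CPM in WT and 193 to 423 CPM in KO libraries. In 3 of these 7 every KO library lay above every WT library, against 15.2% of all tested genes. Macrophage markers were below 0 in 10 of 10 (median -0.69), with sums of 2798 to 4120 CPM in WT and 1977 to 2270 CPM in KO libraries. B cell markers were below 0 in 7 of 7 (median -0.72), at 1135 to 1311 CPM in WT and 303 to 1368 CPM in KO libraries. T cell markers were likewise below 0 in 7 of 7 (median -0.28), at 472 to 584 CPM in WT and 227 to 709 CPM in KO libraries. The groups overlapped in the sums of the brown or beige adipocyte, B cell and T cell markers. Endothelial markers were above 0 in 7 of 7 and progenitor markers in 4 of 8, with medians of 0.42 and -0.07. The 4 tested mammary epithelial markers were all below 0. By edgeR only the skeletal muscle list held genes past the test, and no gene of these lists had 0 counts in all libraries of a group. As higher, DESeq2 called 9 of 10 adipocyte, 14 of 14 muscle, 2 of 7 brown or beige and 2 of 7 endothelial markers. The share over all tested genes was 7.34%. As lower, it called 5 of 10 macrophage and 2 of 8 progenitor markers, against 602 of 16656 genes. Without KO replicate 2, edgeR called 10 of 10 adipocyte markers as higher, against 14.5% of all tested genes. It then called 7 of 7 B cell and 6 of 7 T cell markers as lower, against 1811 of 16656. The part of any of these cell types in the mitoribosomal values was not tested.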

How the data were processed

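Poly(A) RNA from iWAT was sequenced with a stranded mRNA kit, per the labels' protocols. The authors deposited estimated counts per gene for the 6 iWAT libraries; the submitters' processing notes name fastp, featureCounts, GRCm38 and GRCm39, with no role for each, and the aligner and the build used for this table are not given in the sources used here. Between 9.53% and 11.1% of all values were not whole, and counts were rounded to whole numbers before testing. Biotypes and exonic lengths came from GENCODE M21. Symbols came from a separate list of gene names, and 26372 of 33200 identifiers had one. Genes without a symbol held 0.980% to 1.39% of counts and stayed in the fit.

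Genes were filtered with filterByExpr, scaled with TMM and tested for KO against WT (3 libraries each) with edgeR 4.0.16 (robust quasi-likelihood fit, two-sided, Benjamini-Hochberg over all tested genes, threshold 0.05) in R 4.3.3. CPM are TMM-normalised, and 1 count in a library total is worth 0.0491 to 0.0557 CPM, which sets the precision of low values. The fit was tested on simulated data. Alternatives were DESeq2 1.42.0, limma-voom 3.58.1, other scalings and filters, a replicate block, other thresholds and leaving out each library. Levels of a list are medians over genes of log2(CPM + 0.5) minus the WT mean. The genes and lists were chosen with earlier results of these data known, so no p-value was computed over a list. Named were genes past the test, the 4 highest and 4 lowest log2 fold changes and the 3 highest and 2 lowest mean CPM in each subunit, members with special roles, and the 2 most abundant genes of each related list. Protein classes and subunit places came from general knowledge. Promoters were RefSeq sequences of GRCm38.p6, searched on both strands. Figures were drawn with matplotlib 3.10.9.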

Additional observations from a re-analysis of the deposited data

How the results depend on the processing

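The count of genes past the edgeR test was 171 and depended on the tool and the libraries. It was 1824 with DESeq2, 16 with limma-voom, 1370 without the filter on low counts, 1 at an adjusted p of 0.01 and 1378 at 0.10. Leaving out 1 library gave between 1 and 4221 genes, with 4221 without KO replicate 2, 334 without WT replicate 3, 3 without KO replicate 3 and 1 without each of the others. For the large subunit, 0 genes passed with edgeR, 9 with DESeq2, 5 without the filter and 8 at an adjusted p of 0.10, and between 0 and 24 when 1 library was left out, the 24 without KO replicate 2. For the small subunit, 0 passed with edgeR, 4 with DESeq2 and 3 at an adjusted p of 0.10, and between 0 and 11 when 1 library was left out, the 11 again without KO replicate 2. The cause was not tested. Of the 78 genes 35 passed in at least 1 of these fits (26.8% of all tested genes), 22 of them only without KO replicate 2 (14.3%), and 71 had a log2 fold change above 0 in every fit (29.7%).

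With the replicate number as a block, 1225 genes passed, 1 of them in the large subunit (Mrpl42, edgeR adjusted p = 0.0482) and none in the small one, and the medians were 0.28 for both subunits. Same-numbered libraries had correlations of their deviations of -0.01, 0.20 and 0.11. KO replicates 2 and 3 correlated best with the WT library of their own number, and KO replicate 1 with WT replicate 3 (0.14). These few correlations do not decide whether the numbers pair the mice. The numbers were not taken as pairs because the labels do not describe them so.

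Scaling by library totals gave medians of 0.14 (large) and 0.13 (small). Leaving out 1 library gave medians between 0.23 and 0.40 for the large and between 0.20 and 0.37 for the small subunit. The ratio to the respiratory chain, a log2 difference of -0.28, was between -0.34 and -0.23 with 1 library left out, -0.41 with adipocyte markers as the denominator and 0.52 with cytosolic ribosomal proteins. Of 33 named mitoribosomal genes under 16 alternatives, 9 values turned sign. Mrpl23 was at 0.00086 with DESeq2, 0.025 with upper-quartile scaling and between -0.15 and 0.10 with 1 library left out. Mrpl52 was at 0.015 with upper-quartile scaling and between -0.15 and 0.067 with 1 library left out. With library totals Mrpl24 was at -0.10, Mrps17 at -0.011, Dhx30 at -0.095 and Lars2 at -0.14, and Lars2 was also at -0.00020 with limma-voom, -0.00045 with the block and between -0.048 and 0.10 with 1 library left out. Depth was not limiting in the sense of missing genes, since the lowest count of any mitoribosomal gene in a library was 50.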
